A study of Mus musculus with 2 samples.

Results

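Interferon-stimulated genes were examined in nestin-GFP+ stromal cells of mouse bone marrow, 6 weeks after the mice received pIpC. The members are 56 named genes, taken from the deposited table where a row carries exactly that symbol. Of the 56, 51 had a row of their own among the 35798 rows of the table. A further 4 (Irf9, Igtp, Irgm2 and Ifi47) occur only in rows that name more than 1 gene, and Ifi27 has no row under that symbol.

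Type I interferon binds a receptor on the cell surface whose kinases Jak1 and Tyk2 activate Stat2. Complexes of Stat2 with Irf9 bind the interferon-stimulated response element in the promoters of genes that block viruses, sense nucleic acids or tune the response itself. pIpC is a synthetic double-stranded RNA that triggers interferon production through Tlr3 and the cytosolic sensor MDA5, and it is widely used to switch on the interferon-responsive Mx1-cre transgene. The induction by a single exposure is generally transient.

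There were 2 libraries, 1 per genotype, each made from RNA pooled from 3 adult C57BL/6 animals. The JAK2 V617F library came from mice with the genotype Nes-gfp;Mx1-cre;JAK2-V617F, in which recombination by Mx1-cre can occur in any cell that answers interferon, blood cells included. JAK2 V617F is a gain-of-function kinase mutation known from blood cancers. The control library came from littermates whose label gives Nes-gfp alone, and pIpC is given as the treatment of both. The Cre transgene and the mutation are thus present together or absent together, and their effects cannot be told apart. Cells were sorted as CD45- CD31- Ter119- GFP+. No animals without pIpC were analysed here, so the values are levels after pIpC and not a response to it. Expression was measured as FPKM, fragment counts scaled to transcript length and library size, as computed by the authors. With 1 library per genotype there is no replicate error, no test between genotypes and no p-value, and each difference below is one between 2 pools of cells.

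The steps of the lowest FPKM values put the depth at about 6270000 fragments for the JAK2 V617F library and 5430000 for the control library. A single fragment from a 1 kb transcript corresponded to 0.160 FPKM in the JAK2 V617F library and 0.184 FPKM in the control library. The stromal markers Cxcl12 (694 and 891 FPKM) and Lepr (65.4 and 84.8 FPKM) were abundant in the JAK2 V617F and the control library. All 7 pan-leukocyte markers were detected in both, with a summed level of 424 FPKM in the JAK2 V617F and 307 FPKM in the control library. Fewer cells of a type and less RNA per cell cannot be told apart in such pooled samples.

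Interferon-stimulated transcripts were present in both pools, and most lay close together. The 51 members had a median level of 8.24 FPKM in the JAK2 V617F library and 9.51 FPKM in the control library, and 37 of them exceeded the median protein-coding gene in both (2.90 and 2.56 FPKM). Ratios of JAK2 V617F to control are given on the scale log2(FPKM + 1), which understates the difference of genes with low values. Of the 51 members, 48 reached 1 FPKM in at least 1 library. In these 48, JAK2 V617F values exceeded control values at least 2-fold for 3 genes (Mx1, Ifitm1 and Ifitm2). Among all 12496 protein-coding genes that passed the same filter, 10.0% were that much higher. At least 2-fold lower were 7 members (Irf5, Oas3, Oas1g, Rsad2, Irf7, Oasl2 and Iigp1), or 14.6%, against 8.71% of all protein-coding genes. The other 38 lay within 2-fold, and 29 of the 48 within 1.5-fold. The members' median log2 ratio was -0.06, and that of all protein-coding genes was -0.04. Without a set of members from families of close relatives, the median of the other 37 was -0.14. The set was listed by name and not by a check of sequence. It holds Ifitm1 and Ifitm2 of the higher members and Oas1g of the lower. Of the 48, 22 lay above 0 and 26 below. On build GRCm38, the deposited loci of the higher members were chr16:97447035-97462907 for Mx1, chr7:140967221-140969825 for Ifitm1 and chr7:140954839-140955961 for Ifitm2. Those of the lower members were chr6:29526625-29609887 for Irf5, chr5:120753098-120777661 for Oas3, chr5:120876142-120887613 for Oas1g, chr12:26442753-26456452 for Rsad2, chr7:141228784-141266481 for Irf7, chr5:114896936-114912234 for Oasl2 and chr18:60376029-60392627 for Iigp1. The deposited loci of Irf5 and Irf7 also hold the neighbouring genes Tnpo3 and Phrf1. Irf5 itself is annotated at chr6:29526625-29541871 and Irf7 at chr7:141262706-141266481. Each value covers the whole gene, exons of all its transcripts together.

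**Figure D1:**
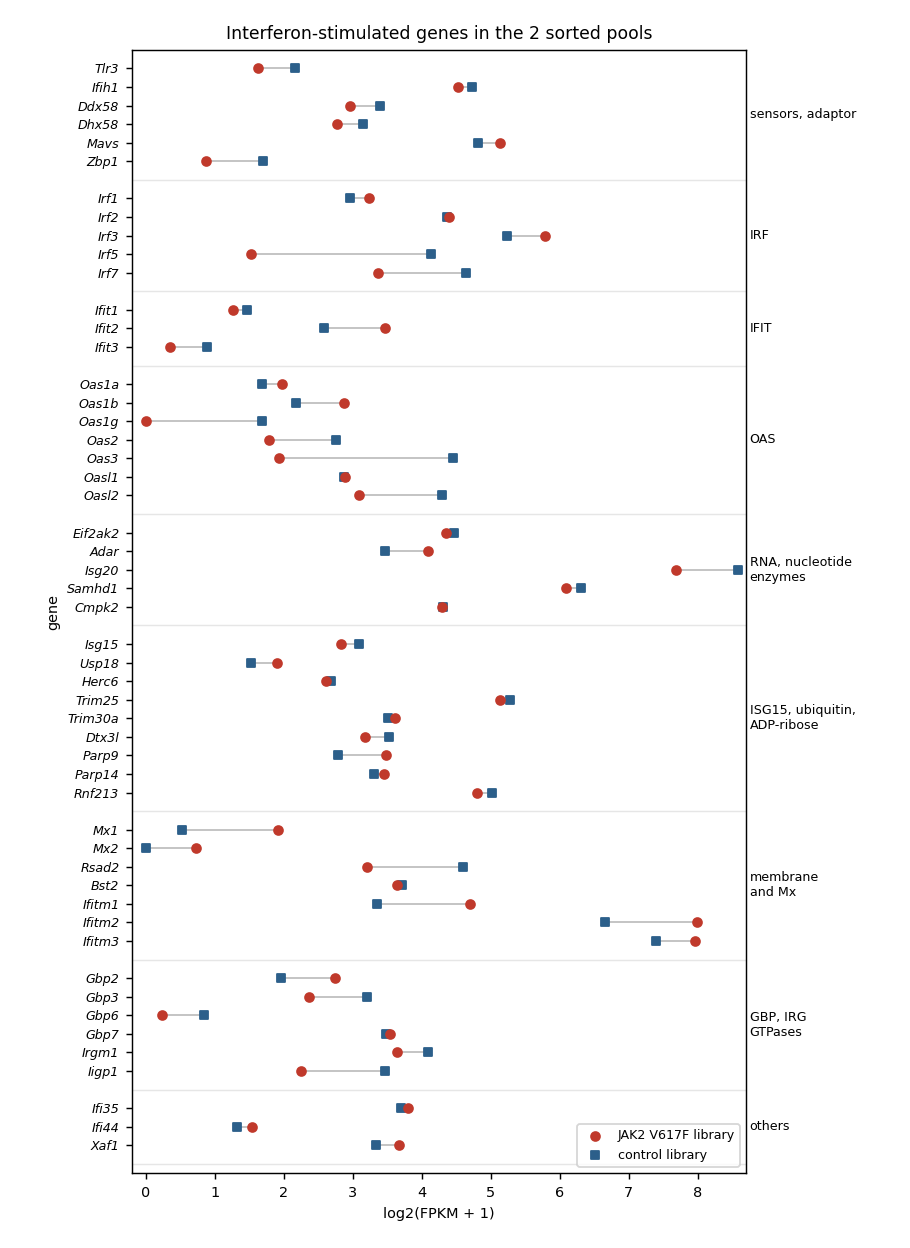
Level of each of the 51 members in the JAK2 V617F library (red circles) and the control library (blue squares), as log2(FPKM + 1), grouped by role. Each point is 1 pooled library, so there are no error bars; the wide gaps to the left (lower in the JAK2 V617F library) are Irf5, Oas3, Oas1g and Rsad2, and those to the right are Mx1, Ifitm1 and Ifitm2.

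**Figure D2:**
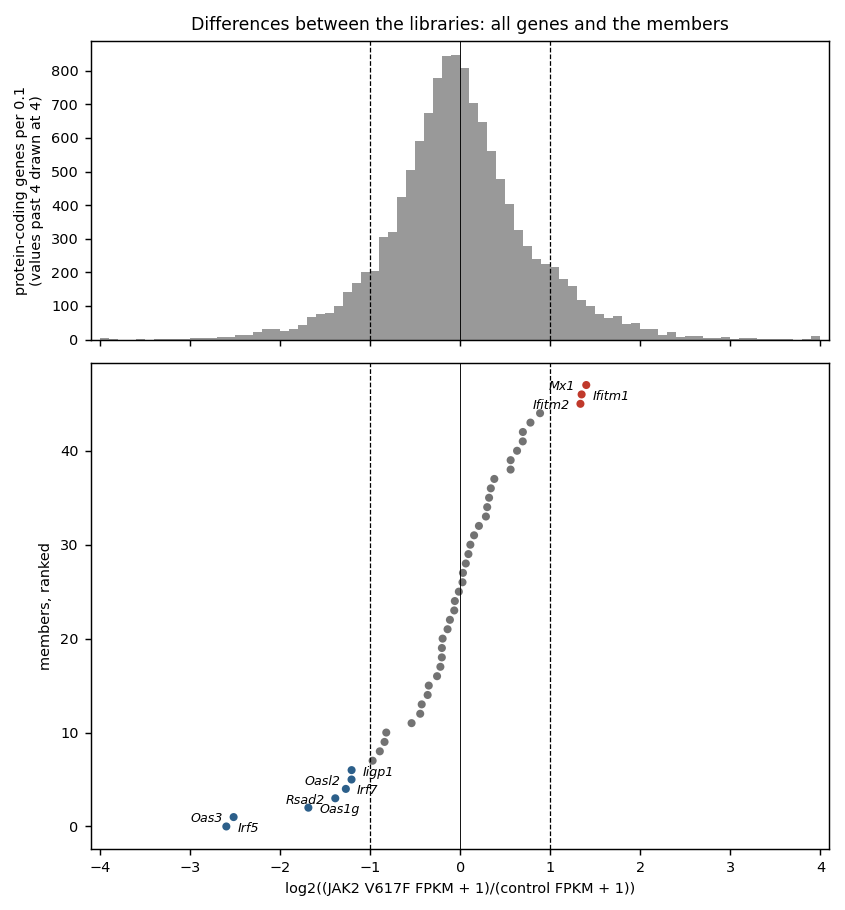
Log2 ratio of the JAK2 V617F to the control library for 12496 protein-coding genes (top, number of genes per bin of 0.1) and for the 48 members at 1 FPKM or more in a library, ranked (bottom). Dashed lines mark 2-fold, past which 3 members lie on the right and 7 on the left.

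Some calls rest on low values. Mx1 reached 1 FPKM in the JAK2 V617F library alone, and Oas1g and Zbp1 in the control library alone, so they could pass the filter only by being high in 1 library. The call of Oas1g, counted among the 7 lower members, rests on a listed value of 0, which can be a failed estimate. Among the 32 members at 5 FPKM or more in both libraries, 2 were at least 2-fold higher (Ifitm1 and Ifitm2) and 3 lower (Rsad2, Irf7 and Oasl2). Of all protein-coding genes at those levels, 3.14% were higher and 5.21% lower.

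The oligoadenylate synthetase family held the members with some of the widest gaps. The active synthetases of the family are switched on by double-stranded RNA and make short oligoadenylates that activate RNase L. Oas3 was at 2.80 FPKM in the JAK2 V617F library, against 20.8 FPKM in the control library (log2 ratio -2.52). This was lower by a factor of 7.42 in FPKM, from at most about 80 fragments in the JAK2 V617F and 515 in the control library, counted on the longest annotated transcript. Oasl2, one of a pair of OAS-like genes, was at 7.52 and 18.7 FPKM in the JAK2 V617F and the control library (log2 ratio -1.21). Its neighbour Oasl1 was at 6.43 and 6.29 FPKM in the same order of libraries. Oas2 was at 2.44 FPKM in the JAK2 V617F and 5.77 FPKM in the control library, just inside 2-fold on the log2(FPKM + 1) scale (-0.97) and past it with a pseudocount of 0.1 FPKM. The 3 members of the Oas1 group did not share a direction. Oas1b was at 6.33 FPKM in the JAK2 V617F and 3.54 FPKM in the control library, and Oas1a at 2.94 and 2.20 FPKM. For Oas1a, with 1 annotated transcript, about 32 and 21 fragments gave a ratio of 1.32 with an exact (Clopper-Pearson) 95% interval of 0.739 to 2.41. Oas1g had a listed value of 0 in JAK2 V617F cells and of 2.22 FPKM in the control library. A listed 0 can be a failed estimate, and Oas1a and Oas1g are close relatives between which reads may have been split, so no fold is given. The median log2 ratio of the 7 OAS genes was that of Oas2, -0.97, and -0.85 to -0.91 under the 3 other scalings of the libraries. It was -1.21 with a pseudocount of 0.1 FPKM and -0.53 with one of 5 FPKM.

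Within the OAS, IFIT and GBP clusters, neighbouring genes lay on both sides of a ratio of 1. Oas2, Oas3, Oas1b, Oas1g and Oas1a lie in this order within 177 kb of chromosome 5. Along this row the JAK2 V617F value was lower, lower, higher, lower and higher than the control value, with the listed 0 of Oas1g taken as lower. Oasl2 and Oasl1 lie within 41.0 kb on the same chromosome, and 1 of the pair was past 2-fold. The IFITM genes on chromosome 7 were all higher in the JAK2 V617F library.

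**Figure D3:**
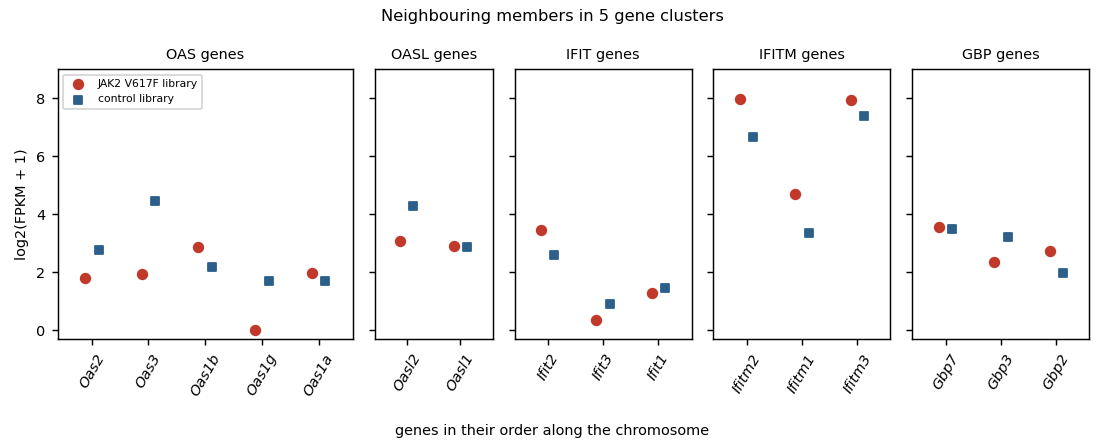
Levels of neighbouring members in 5 gene clusters, as log2(FPKM + 1), in the JAK2 V617F library (red circles) and the control library (blue squares), 1 pooled library each. Genes stand in chromosome order without scale; Oas3 and Oasl2 were lower and all 3 IFITM genes higher in the JAK2 V617F library, while Oasl1 and Gbp7 nearly coincide.

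The promoters of the members past 2-fold were searched for the core of the interferon-stimulated response element, the letters GAAA, then NN, then GAAA, on both strands, in RefSeq windows of 300 bases (250 before and 50 after the start of the gene, build GRCm38.p6). Windows were found for 40 of the 51 members. Of these 40 members, 19 (47.5%) had a match in at least 1 window, while 3.44% of all 32851 promoter windows had one. Per window, 20 of 48 member windows (41.7%) had a match. A match is a run of letters and not a shown binding site. The 150 bases before the start are printed for the 4 members past 2-fold that had a match there, with the match in capitals. Oas1a is shown as well because it is the close relative of Oas1g, and Isg15 because it had 3 overlapping matches. These 2 were chosen after their values were seen. The windows are chr5:120777660-120777809 for Oas3, chr5:120887614-120887763 for Oas1g, chr5:120907526-120907675 for Oas1a, chr12:26456453-26456602 for Rsad2, chr7:140955962-140956111 for Ifitm2 and chr4:156200819-156200968 for Isg15, all on the minus strand.
Oas3: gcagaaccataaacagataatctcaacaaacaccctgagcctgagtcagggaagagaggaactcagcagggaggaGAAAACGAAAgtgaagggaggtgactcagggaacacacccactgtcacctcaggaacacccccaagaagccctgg
Oas1g: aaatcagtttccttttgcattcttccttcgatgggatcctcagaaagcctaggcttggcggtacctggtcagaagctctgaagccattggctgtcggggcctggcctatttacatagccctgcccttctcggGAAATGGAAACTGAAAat
Oas1a: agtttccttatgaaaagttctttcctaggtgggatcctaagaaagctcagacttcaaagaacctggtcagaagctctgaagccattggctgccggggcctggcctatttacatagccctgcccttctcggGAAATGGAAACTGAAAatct
Rsad2: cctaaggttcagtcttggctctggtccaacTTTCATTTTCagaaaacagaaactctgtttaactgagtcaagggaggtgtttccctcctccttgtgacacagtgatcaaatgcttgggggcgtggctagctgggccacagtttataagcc
Ifitm2: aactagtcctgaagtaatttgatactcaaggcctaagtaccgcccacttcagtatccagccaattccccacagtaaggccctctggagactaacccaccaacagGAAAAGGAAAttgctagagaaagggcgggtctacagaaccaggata
Isg15: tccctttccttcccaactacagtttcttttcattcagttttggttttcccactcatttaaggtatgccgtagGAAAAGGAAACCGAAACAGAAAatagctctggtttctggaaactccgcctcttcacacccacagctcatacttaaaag
The Oas1g and Oas1a windows share the same double match, and 129 of their 150 bases were identical in a global alignment with 16 mismatches and 10 gap positions. With only 2 higher and 6 lower members among the 40, whether the core sorts the members by direction cannot be decided. Of the 19 members with a match, 1 was at least 2-fold higher and 3 lower, Oas1g with its listed value of 0 among them. Of the 21 without, 1 was higher and 3 lower. The median log2 ratio was -0.16 over the 18 members with a match that reached 1 FPKM and -0.02 over the 21 without. The gamma-activated site TTCNNNGAA, searched the same way, was present in 12 of the 48 member windows (25%), belonging to 12 of the 40 members, and in 8.30% of all windows. None of those 12 was past 2-fold in either direction, among 2 higher and 6 lower members in the 40. Of all protein-coding genes, 10.0% were higher and 8.71% lower, so 12 genes are too few for a reading of the site. Matches of the 2 motifs overlapped in 2 member windows.

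Among the interferon regulatory factors, the transcription factors that drive interferon genes and their targets, 2 of 5 were at least 2-fold lower in the JAK2 V617F library and none higher. Of all protein-coding genes, 8.71% were that much lower and 10.0% higher, and 5 genes are too few to compare with these shares. Irf5, which acts downstream of Toll-like receptors and is known mainly from myeloid and B cells, was at 1.88 FPKM in the JAK2 V617F and 16.5 FPKM in the control library, a log2 ratio of -2.60 and a factor of 8.76 in FPKM. This was the lowest log2 ratio of the members with a pseudocount of 1 FPKM, while Oas1g, through its listed 0, was lowest with 0.1 FPKM and Oas3 with 5 FPKM. Irf7, the amplifier of type I interferon production and itself interferon-induced, was at 9.32 FPKM in the JAK2 V617F and 23.9 FPKM in the control library (log2 ratio -1.27). Both genes share exon sequence with a neighbour on the opposite strand, Tnpo3 (44.4 and 45.1 FPKM) for Irf5 and Phrf1 (45.4 and 55.8 FPKM) for Irf7. Whether strand was used in counting is not given in the sources used here, so reads of such pairs cannot be told apart. In all, 15 members have exons that overlap a gene on the opposite strand. Irf3, the constitutive factor activated by nucleic acid sensors, was at 54.3 FPKM in the JAK2 V617F and 36.6 FPKM in the control library. It overlaps Bcl2l12 (14.6 and 6.37 FPKM) in the same way. Irf1, an interferon gamma target, was at 8.45 and 6.76 FPKM, and its antagonist Irf2 at 19.9 and 19.6 FPKM, with the JAK2 V617F library given before the control library.

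Membrane-associated and Mx effectors contributed all 3 members past 2-fold on the higher side. The IFITM proteins sit in cell membranes and hinder the entry of enveloped viruses. Ifitm2 was at 254 FPKM in the JAK2 V617F and 100.1 FPKM in the control library (log2 ratio 1.33). About 787 and 269 fragments gave a ratio of 2.54 with an exact 95% interval of 2.21 to 2.93, which covers counting error only. Ifitm3 was at 247 FPKM in the JAK2 V617F and 167 FPKM in the control library, a ratio of 1.48 with an interval of 1.32 to 1.66. Ifitm1 was at 25.0 FPKM in the JAK2 V617F and 9.22 FPKM in the control library (log2 ratio 1.35). The summed level of the 3 IFITM genes was 526 FPKM in the JAK2 V617F and 277 FPKM in the control library. These genes resemble each other in sequence, so reads could be shared among them.

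Mx1 and Mx2 encode dynamin-like GTPases, and Mx1 lends its promoter to the Mx1-cre transgene that only the JAK2 V617F animals carry by label. Mx1 was at 2.79 FPKM in the JAK2 V617F library and 0.438 FPKM in the control library (log2 ratio 1.40), from at most about 56 and 8 fragments. Mx2 was at 0.660 FPKM in the JAK2 V617F library and listed at 0 in the control library. Both stayed low, below most other members. Rsad2, which encodes the radical enzyme viperin, went the other way, with 8.24 FPKM in the JAK2 V617F and 23.2 FPKM in the control library (log2 ratio -1.39). Its neighbour Cmpk2, a nucleotide kinase gene commonly induced with it, was at 18.6 and 18.8 FPKM in the same order. Bst2, which encodes the virion-tethering protein tetherin, was at 11.5 FPKM in the JAK2 V617F and 12.1 FPKM in the control library.

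The sensors of foreign nucleic acid and the adaptor gene Mavs all lay within 2-fold, with 5 of these 6 genes lower in the JAK2 V617F library. Of all 12496 protein-coding genes, 6574 were lower. The median log2 ratio of the 6 was -0.40, beside -0.04 for all protein-coding genes. It was -0.25 with a pseudocount of 5 FPKM. With equal FPKM sums it was -0.24, beside 0.13 for all protein-coding genes. The 2 receptors that recognise pIpC itself were both measurable. Tlr3, the endosomal receptor, was at 2.07 FPKM in the JAK2 V617F and 3.47 FPKM in the control library. Ifih1, which encodes MDA5, was at 22.0 FPKM in the JAK2 V617F and 25.6 FPKM in the control library. Ddx58, which encodes RIG-I, was at 6.80 and 9.51 FPKM, and its relative Dhx58 at 5.86 and 7.82 FPKM, with the JAK2 V617F library first in each pair. Zbp1, a sensor of Z-form nucleic acid, was at 0.832 FPKM in the JAK2 V617F and 2.24 FPKM in the control library, and it passed 2-fold on the lower side with a pseudocount of 0.1 FPKM (log2 ratio -1.33). Mavs, the mitochondrial adaptor of the RIG-I family, was at 34.0 FPKM in the JAK2 V617F and 27.1 FPKM in the control library.

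Of 5 classical early targets, Isg15, Usp18, Ifit1 and Ifit3 lay below the members' median in both libraries. Isg15, a ubiquitin-like modifier, was at 6.10 FPKM in the JAK2 V617F and 7.50 FPKM in the control library, from about 23 and 24 fragments. The ratio was 0.831 with an interval of 0.448 to 1.54, which covers counting error only, so these counts do not settle a direction. The IFIT proteins bind foreign RNA ends and hinder their translation. Ifit1 was at 1.41 FPKM in the JAK2 V617F and 1.77 FPKM in the control library (ratio 0.795, interval 0.425 to 1.48). Ifit3 stayed below 1 FPKM in both, at 0.275 and 0.857 FPKM (ratio 0.372, interval 0.0620 to 1.63). Ifit2 stood apart from its neighbours at 10.1 FPKM in the JAK2 V617F and 4.98 FPKM in the control library (log2 ratio 0.89), and it passed 2-fold when the FPKM sums were made equal. Usp18, which removes Isg15 from proteins and restrains the interferon receptor, was at 2.74 FPKM in the JAK2 V617F and 1.88 FPKM in the control library.

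None of the 9 ISG15, ubiquitin and ADP-ribose genes passed 2-fold (median log2 ratio -0.07, and 0.01 to 0.08 under the other scalings). Parp9 and its partner Dtx3l share 1 divergent locus, and Parp9 was at 10.2 FPKM in the JAK2 V617F and 5.92 FPKM in the control library, while Dtx3l was at 8.01 and 10.5 FPKM. Their exons overlap on opposite strands, so this opposition has the same limit on strand. Rnf213, a giant ubiquitin ligase, was at 27.0 FPKM in the JAK2 V617F and 31.2 FPKM in the control library. Trim25, the ubiquitin ligase that assists RIG-I, was at 34.2 and 37.9 FPKM in that order. The remaining genes of the group were Parp14 (10.0 and 8.90 FPKM), Trim30a (11.2 and 10.4 FPKM) and Herc6, the main Isg15 ligase of the mouse (5.11 and 5.41 FPKM), again with the JAK2 V617F value before the control value.

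The RNA and nucleotide enzymes included the member with the highest mean level over both libraries. Isg20, an RNA exonuclease, was at 205 FPKM in the JAK2 V617F and 383 FPKM in the control library (log2 ratio -0.89). These values lay above 98.6% of protein-coding genes in the JAK2 V617F and 99.2% in the control library, and only Isg20, Ifitm2 and Ifitm3 exceeded 100 FPKM in a library. Samhd1, which depletes deoxynucleotides, was at 67.1 FPKM in the JAK2 V617F and 78.4 FPKM in the control library. Eif2ak2, the kinase PKR that halts translation on double-stranded RNA, was at 19.3 and 21.02 FPKM, with the JAK2 V617F library first. Adar, which edits double-stranded RNA, was at 16.0 FPKM in the JAK2 V617F and 10.0 FPKM in the control library (log2 ratio 0.63). None of the 5 genes passed 2-fold.

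Guanylate-binding proteins and immunity-related GTPases attack the vacuoles of intracellular pathogens and answer mainly to interferon gamma. Of 5 such genes at 1 FPKM or more, none was at least 2-fold higher and 1 was lower. Of all protein-coding genes, 10.0% were that much higher and 8.71% lower, and 5 genes are too few to compare with these shares. Iigp1 was at 3.77 FPKM in the JAK2 V617F and 10.0 FPKM in the control library (log2 ratio -1.21). Irgm1, a regulator of this family, was at 11.5 FPKM in the JAK2 V617F and 16.0 FPKM in the control library. Gbp3 (4.16 FPKM in the JAK2 V617F and 8.25 FPKM in the control library) and Gbp2 (5.70 and 2.90 FPKM) lay on opposite sides, and Gbp7 was at 10.7 and 10.2 FPKM. Gbp6 stayed below 1 FPKM in both, at 0.172 and 0.790 FPKM. Of the remaining members, Xaf1, a pro-apoptotic gene, was at 11.8 FPKM in the JAK2 V617F and 9.09 FPKM in the control library. Ifi35 was at 13.0 and 11.9 FPKM and Ifi44 at 1.90 and 1.51 FPKM in that order.

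Genes that feed the pathway or are induced by it, under symbols other than those of the members, were read from 5 further lists. RefSeq lists Ifi27l1, in the last list, as a synonym of the member Ifi27. Of 12 interferon ligand rows, 11 were listed at 0 in both libraries, Ifnb1 and Ifng among them. Ifnk, an interferon best known from keratinocytes, was at 0.690 FPKM in the JAK2 V617F and 2.90 FPKM in the control library, and its locus also holds Mob3b. For each list below, the shares to compare are 10.0% of all protein-coding genes at least 2-fold higher and 8.71% lower. Of 10 receptor and proximal signalling genes, none was at least 2-fold higher and 2 were lower. These were Ifngr2 (18.5 and 39.7 FPKM) and Il28ra, the lambda receptor gene (0.475 and 2.85 FPKM), each with the JAK2 V617F library first. Rescaling to any of the 3 other scales left 1 of them past 2-fold. Ifnar1, a chain of the type I receptor, was at 15.6 FPKM in the JAK2 V617F and 18.7 FPKM in the control library. Ifngr1 was at 81.7 and 58.2 FPKM and Jak1 at 72.4 and 81.3 FPKM, in that order.

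Of 9 feedback inhibitors, 1 was at least 2-fold higher and 2 lower. Of all protein-coding genes, 10.0% were higher and 8.71% lower. Counts of 1 or 2 in lists of 9 or 10 genes are too few to set apart from these shares. One of the lower genes was Ptpn6, which encodes the phosphatase SHP-1 and is expressed mainly in blood cells, with 117 FPKM in the JAK2 V617F and 368 FPKM in the control library. The other was Socs1, the main brake on interferon receptor signalling, with 0.285 FPKM in the JAK2 V617F and 5.55 FPKM in the control library. Cish was at 4.78 FPKM in the JAK2 V617F and 0.530 FPKM in the control library. Socs1 and Cish each reached 1 FPKM in 1 library alone, as did Ifnk and Il28ra above and Tlr8 below. These genes could pass the filter only by being high in that library. Ptpn11 was at 29.5 and 45.4 FPKM and Irf2bp2 at 74.0 and 53.1 FPKM in that order. Of 10 further sensing genes, none was at least 2-fold higher and 2 were lower, Tmem173, which encodes the adaptor STING (4.003 and 11.3 FPKM), and Tlr8, with a listed value of 0 in JAK2 V617F cells and of 1.13 FPKM in the control library. Aim2, a DNA sensor, was at 26.0 FPKM in the JAK2 V617F and 14.1 FPKM in the control library, and the kinase gene Tbk1 at 17.1 and 17.3 FPKM. The adaptor gene Myd88 was at 12.2 and 12.4 FPKM. With a pseudocount of 0.1 FPKM or equal FPKM sums, 2 of these sensing genes were past 2-fold on the higher side, and under each of the other scalings 1 was. At these settings, 11.4% to 13.6% of all protein-coding genes were that much higher.

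The list of 50 other interferon-induced genes at 1 FPKM or more held 8 genes past 2-fold on the higher side and 5 on the lower side. These were 16% and 10% of the list, beside 10.0% and 8.71% of all protein-coding genes. Its median log2 ratio was 0.22, and 0.38 with equal FPKM sums. With a pseudocount of 5 FPKM, 4 were past 2-fold on the higher side and 3 on the lower, beside 2.35% and 3.02% of all protein-coding genes. Higher in the JAK2 V617F library than in the control library were Sp100, a nuclear body gene with related copies on the same chromosome (842 and 218 FPKM), and Sp110 (14.8 and 5.57 FPKM). So were the Schlafen genes Slfn5 (16.9 and 4.22 FPKM) and Slfn4 (2.33 and 0.555 FPKM), the immunoproteasome gene Psmb10 (18.7 and 6.69 FPKM), Casp1, the inflammasome protease (7.43 and 1.93 FPKM), and Ms4a4c (8.10 and 0.218 FPKM). Epsti1 was at 3.30 FPKM in the JAK2 V617F library and listed at 0 in the control library. Lower in the JAK2 V617F library were Cxcl9, the interferon gamma chemokine (0.230 and 8.84 FPKM), Ube2l6, the conjugating enzyme for Isg15 (24.1 and 80.8 FPKM), and Daxx (45.2 and 112 FPKM). Casp4 (5.14 and 11.7 FPKM) and Slfn1 (0.267 and 1.74 FPKM) were lower too. The proteasome activator gene Psme1 (231 and 152 FPKM) and Lgals9 (197 and 152 FPKM) were among the most abundant.

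**Figure D4:**
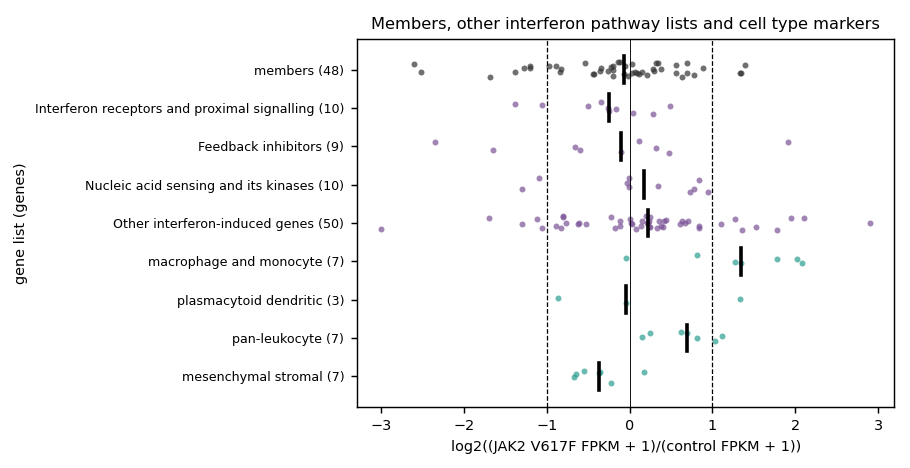
Log2 ratio of the JAK2 V617F to the control library for the members, 4 further interferon pathway lists and 4 marker lists, with the number of genes at 1 FPKM or more in brackets, each point 1 gene and each black bar the median. Dashed lines mark 2-fold; the members' median lies at -0.06 and that of the macrophage and monocyte markers at 1.35.

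Markers of other cells that carry interferon-stimulated genes differed between the same pools. Of the 7 macrophage and monocyte markers that reached 1 FPKM, 5 exceeded 2-fold on the higher side and none on the lower. Of all protein-coding genes, 10.0% were that much higher and 8.71% lower, the shares to compare for each marker list here. C1qb, C1qc and Cd14 reached 1 FPKM in the JAK2 V617F library alone, so they could pass the filter only by being high there. The summed level over all 9 markers was 79.2 FPKM in the JAK2 V617F and 51.2 FPKM in the control library. The 5 were Cd68 (13.2 FPKM in the JAK2 V617F and 3.14 FPKM in the control library), Csf1r (7.41 and 2.49 FPKM), C1qb (4.20 and 0.233 FPKM), C1qc (3.75 and 0.869 FPKM) and Cd14, at 3.05 FPKM in the JAK2 V617F library and listed at 0 in the control library. Ly6c2 made up much of the sums, with 38.3 and 39.6 FPKM. C1qa was listed at 0 in both and Emr1 was at 0.258 and 0.114 FPKM in that order. Plasmacytoid dendritic markers, of the cells best known for interferon production, had a sum over 6 genes of 6.76 FPKM in the JAK2 V617F and 4.05 FPKM in the control library. Ly6d made up most of it, with 4.53 FPKM in the JAK2 V617F and 1.201 FPKM in the control library, past 2-fold on the higher side. Siglech was at 0.994 and 1.05 FPKM and Klk1 was listed at 0 in both. All 7 pan-leukocyte markers lay above 0 in log2 ratio, with Cd52 and Tyrobp past 2-fold. Of 7 mesenchymal stromal markers, 6 lay below 0, none past 2-fold, with a median log2 ratio of -0.37 and a sum of 872 FPKM in the JAK2 V617F and 1117 FPKM in the control library. All 7 erythroid markers lay below 0, the globin genes Hba-a1 and Hbb-b1 past 2-fold, with a sum of 1047 FPKM in the JAK2 V617F and 2197 FPKM in the control library. Of the 7 neutrophil markers that reached 1 FPKM, Ngp, Ltf and Camp passed 2-fold on the lower side, while the summed level over all 8 was 2267 FPKM in the JAK2 V617F and 2253 FPKM in the control library. The T and NK markers that reached 1 FPKM, Lck, Cd4 and Nkg7, all passed 2-fold on the higher side. Cd4 reached it in the JAK2 V617F library alone, at 2.69 FPKM, with a listed 0 in the control library. The list sum was 96.1 FPKM in the JAK2 V617F and 31.7 FPKM in the control library. The defining markers Cd3g and Ncr1 were listed at 0 in both. Of 7 B lineage markers, Vpreb1 was past 2-fold on the lower side (list sums 165 and 176 FPKM), and of 5 endothelial markers, Emcn on the higher side (list sums 31.4 and 27.6 FPKM), in that order of libraries. Emcn reached 1 FPKM in the JAK2 V617F library alone (5.15 FPKM, and 0.196 FPKM in the control library). Transcripts of the markers used to exclude cells in the sort remained, with Ptprc, which encodes CD45, at 8.79 FPKM in the JAK2 V617F and 5.38 FPKM in the control library. The part of these cells in the values of the members was not tested.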

How the data were processed

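Per the labels' protocols, small amounts of RNA were amplified with an Ovation kit before a TruSeq DNA library was made from the sonicated product. Tools named in the submitters' processing notes are Cufflinks, TopHat2 2.0.7, cutadapt 1.2.1 and Bowtie2 2.0.6, with build GRCm38. The annotation release, use of strand and scaling between libraries were not named in the sources used here. The authors deposited 1 FPKM value per gene and library. Amplified reads without molecular identifiers are not independent molecules, so intervals and fragment numbers cover counting error only.

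From these values, log2 ratios were computed with a pseudocount of 1 FPKM in Python 3.11.15 (pandas 2.3.3). A gene entered if either library reached 1 FPKM, and was called at 2-fold. The comparison set was the 12496 protein-coding rows (GENCODE vM21 or RefSeq) that passed. Depth was estimated from 5570 genes with 1 transcript: FPKM times length less 160 nt fell into steps, and of the genes below 3.5 estimated fragments, 82.4% in the JAK2 V617F and 81.9% in the control library lay within 0.2 of a whole number. The offset was the one of 31 tried that made the lowest step sharpest. The steps and calls were tested on simulated data. Fragments on the longest annotated transcript are upper limits. Every member with a row is named, and of the other interferon lists the genes past 2-fold and the 3 most abundant. The values of 1 gene of these lists are not reported here. Some further genes of these lists were chosen after their values were seen. The members and lists were chosen with earlier results of these data known. Promoter sequences are from RefSeq.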

Additional observations from a re-analysis of the deposited data

How the results depend on the processing

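The comparison rests on 1 pooled library per genotype, so no replicate could be left out, and no paired analysis was possible because each genotype had 1 library. The counts of 3 members higher and 7 lower stayed within 1.5 times with a pseudocount of 0.1 FPKM, with no filter, at 5 FPKM in a library and under the 3 other scalings. With a pseudocount of 5 FPKM, 4 members were lower, and Iigp1, Mx1, Oas1g and Oasl2 lost their calls. Of all protein-coding genes, 3.02% were lower with that pseudocount. At 1.5-fold, 8 were higher and 11 lower, and at 3-fold, 0 and 3. Of all protein-coding genes, 19.0% were higher and 19.3% lower at 1.5-fold, and 3.31% and 2.66% at 3-fold. At 5 FPKM or more in both libraries, an alternative chosen after seeing the data, 3 were lower. These follow from the thresholds themselves. Rescaling to the same FPKM sum moved the median of all protein-coding genes from -0.04 to 0.13 and that of the members from -0.06 to 0.092, and 27 rather than 22 of 48 members lay above 0. No called member changed sign under any alternative. Short or weakly expressed members rest on few fragments, as given beside Isg15, Ifit1 and Ifit3.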

Other observations

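The 4 members without a row of their own fall in 3 rows that name 2 genes each, and their values cannot be assigned to either gene. The row of Irf9, the DNA-binding partner of Stat2, and Rnf31, a ubiquitin ligase gene, was at 50.8 FPKM in the JAK2 V617F and 98.5 FPKM in the control library (log2 ratio -0.94). The row of the GTPase genes Igtp and Irgm2 was at 17.1 FPKM in the JAK2 V617F and 15.8 FPKM in the control library. The row of Ifi47 and the olfactory receptor gene Olfr56 was at 21.7 FPKM in the JAK2 V617F and 19.7 FPKM in the control library. A row under Ifi27l1, which RefSeq lists as a synonym of Ifi27, was at 107 FPKM in the JAK2 V617F and 59.6 FPKM in the control library (log2 ratio 0.83). That row was counted among the 50 other interferon-induced genes.

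Subunits of the immunoproteasome, which interferon gamma induces, were measured as Psmb8 (19.5 FPKM in the JAK2 V617F and 11.6 FPKM in the control library), Psmb9 (41.2 and 35.8 FPKM) and Psmb10, given above, and the ratio lay above 1 for each. Their loci also hold Tap2 for Psmb8, Tap1 for Psmb9, and Lcat and Slc12a4 for Psmb10. The chemokine gene Cxcl10 was at 1.06 FPKM in the JAK2 V617F and 0.610 FPKM in the control library, while Cxcl9 was lower, as given above. The kinase gene Ikbke, which phosphorylates Irf3 and Irf7, was at 6.78 FPKM in the JAK2 V617F and 3.05 FPKM in the control library (log2 ratio 0.94).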
